A study of Homo sapiens with 12 samples.

Results

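Aminoacyl-tRNA synthetases join each amino acid to its transfer RNA, the step that gives the ribosome charged tRNA. In human cells the cytosolic and the mitochondrial ribosome are served by largely separate enzymes, all encoded in the nucleus and most of them by separate genes. Many of the cytosolic genes are known targets of ATF4, a transcription factor made when amino acids run short or proteins misfold. The genes described here are the 20 cytosolic and 16 mitochondrial synthetases, 36 of 63299 listed genes. They were picked by symbol, with earlier results of these data known. All 36 passed the filter on low counts, with single counts from 121 (SARS2) to 28387. Symbols are spelled as in the files.

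The RNA came from LNCaP-shPRMT5 cells, an androgen-sensitive human prostate cancer line whose integrated hairpin, switched on by doxycycline, targets the messenger RNA of PRMT5, an enzyme that places symmetric methyl marks on arginines. The 12 libraries form 4 groups of 3. Non-irradiated controls had neither doxycycline nor irradiation, and non-irradiated knockdowns had doxycycline at 1 µg/mL every 48 h. Irradiated controls had 2 Gy and no doxycycline, and irradiated knockdowns had both, with harvest 24 h after irradiation. All 4 groups carry the hairpin construct, and no group received doxycycline without it, so effects of the knockdown and of doxycycline, an antibiotic known to bind mitochondrial ribosomes, cannot be told apart. Irradiated and non-irradiated libraries also came in separate tables, so irradiation and table cannot be told apart either. The design asks how PRMT5 loss and irradiation, alone and together, alter gene expression. Nothing in the labels ties replicates to separate cultures, and the p-values then cover no more than the spread among these 12 libraries, which may be technical.

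PRMT5 checked the labels. Its level was 186, 190 and 198 CPM, a unit scaled here for library size and composition, in non-irradiated controls and 26.6, 30.8 and 32.8 in the knockdowns. It was 230, 187 and 187 in irradiated controls and 31.3, 26.9 and 24.9 in irradiated knockdowns, and it fell in both comparisons (log2 fold change -2.67 and -2.86). Total counts ran from 14801939 to 33158865, of which the synthetase genes took between 0.530% and 0.893%. The summed level of the 12 luminal prostate markers was 7216 to 11060 CPM, that of the leukocyte markers at most 0.662 CPM, and PTPRC, the general leukocyte marker, did not exceed 0.0311 CPM. Replicate 1 of both irradiated groups stood apart from replicates 2 and 3. A chi-square of counts per gene was 145 and 117 for irradiated control 1 against the other irradiated controls and 82.8 and 62.5 for irradiated knockdown 1, but 9.80 to 32.3 for all other replicate pairs.

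Levels of different genes are compared per kilobase of merged exon. Over all libraries the cytosolic synthetases had a median of 45.5 CPM per kilobase and the mitochondrial ones 10.4. AARS, which charges alanine, was highest at 174, followed by NARS (asparagine) at 143, GARS (glycine) at 107, EPRS, a fused glutamyl- and prolyl-tRNA synthetase, at 105, and TARS (threonine) at 100.4. IARS2, the mitochondrial isoleucine enzyme, ranked 7 of all 36 at 71.2 and stood far above HARS2, the next mitochondrial gene, at 25.5. The lowest cytosolic genes were HARS (histidine) at 16.1 and CARS (cysteine) at 11.2, and SARS2 (mitochondrial serine) was lowest of all at 2.09. The SARS2 level is uncertain, since 57.0% of its exon positions are shared with other genes. GARS and KARS (lysine) supply both compartments from a single gene, and glutaminyl-tRNA of mitochondria is made by an amidation route in place of a synthetase, so these have no mitochondrial partner here.

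**Figure D1:**
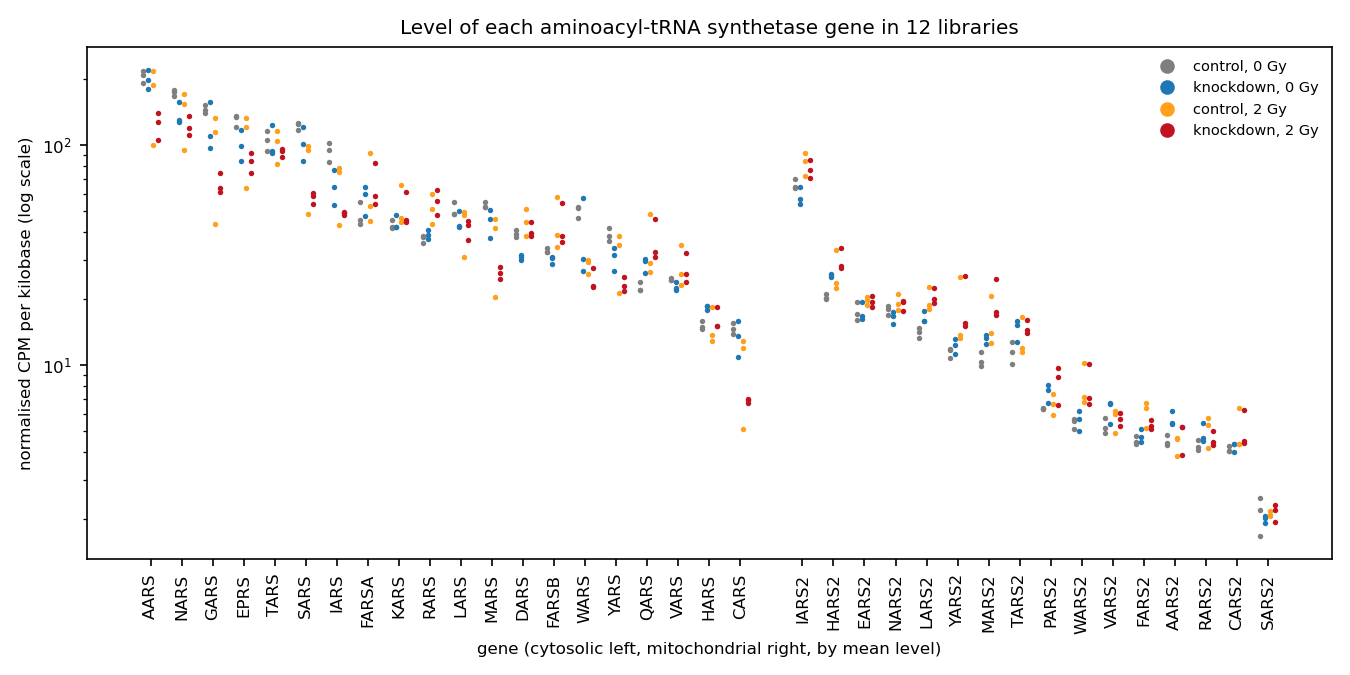
Level of each synthetase gene in every library, in scaled CPM per kilobase on a log axis, cytosolic genes left and mitochondrial genes right, each ordered by mean level. Each point is 1 library and colours are the 4 groups. The means run from 174 for AARS to 2.09 for SARS2, and IARS2 (71.2) is the single mitochondrial gene at the level of the abundant cytosolic ones.

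In non-irradiated cells, fold changes of the knockdown leaned down for the cytosolic genes and up for the mitochondrial genes, but they were small and no synthetase passed the test. The log2 fold change was negative for 15 of 20 cytosolic genes, with a median of -0.15, and positive for 12 of 16 mitochondrial genes, with a median of 0.13, beside a median of 0.00 over all 17191 tested genes. The model fitted over all libraries (edgeR) called 1.54% of all genes and 0 of the 36 synthetases at an adjusted p under 0.05. At an unadjusted p under 0.05 there were 5 synthetases, where 2999 of all genes passed. DESeq2 called 1 (DARS), where it called 1047 of all genes, and limma-voom called 0 synthetases. Without knockdown replicate 1 a single other member, WARS, was called lower (-0.81), beside 271 of 17598 genes lower.

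IARS, the cytosolic isoleucine enzyme (chr9:92210207-92293756, minus strand, GRCh38), had the largest difference. It was at 701, 621 and 755 CPM in controls and 572, 394 and 478 in knockdowns (log2 fold change -0.53, SE 0.21, adjusted p = 0.216). All 3 knockdown libraries lay below all 3 controls. DARS, the aspartate enzyme, was at 165, 159 and 153 CPM in controls and at 121, 124 and 126 in knockdowns (-0.36, SE 0.11, adjusted p = 0.132). Its groups were tight and far apart, and the difference was the most precise of the cytosolic set. NARS was at 723, 714 and 684 CPM in controls and 638, 529 and 521 in knockdowns (-0.33, SE 0.19). EPRS was at 726, 656 and 736 CPM against 640, 463 and 537 (-0.37, SE 0.23). YARS, the tyrosine enzyme, was at 300.5, 316 and 343 CPM against 259, 220 and 280 (-0.34, SE 0.19). These 3 genes shared the pattern of IARS, with no overlap between groups. WARS, the tryptophan enzyme and an interferon-induced gene, behaved otherwise: 297, 327 and 332 CPM in controls, but 364, 169 and 193 in knockdowns. Its first knockdown library was above every control and the other 2 were far below, and the 12 tested interferon response genes had a median log2 fold change of -0.03, with 0 called. The interval for WARS ran from -0.90 to 0.11 around -0.40.

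A smaller cytosolic group was higher in knockdowns. QARS, the glutamine enzyme, was at 103, 113 and 103 CPM in controls and 124, 140 and 142 in knockdowns (0.35, SE 0.21, adjusted p = 0.435). HARS was at 125, 133 and 123 CPM against 156, 156 and 149 (0.27, SE 0.14, adjusted p = 0.341). Neither gene's groups overlapped. The other positive values were those of FARSA (0.25), a subunit of phenylalanyl-tRNA synthetase, RARS (arginine, 0.06) and KARS (0.03), while FARSB, the other subunit of that enzyme, was at -0.13. LARS (leucine) and VARS (valine) had -0.17 and -0.11. AARS, the most abundant member, was at 937, 859 and 974 CPM in controls and 883, 809 and 983 in knockdowns, with an interval of -0.55 to 0.45 around -0.05.

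Among the mitochondrial genes, TARS2 (threonine) was at 41.1, 52.0 and 46.6 CPM in controls and 52.0, 61.9 and 64.8 in knockdowns (0.36, SE 0.15, adjusted p = 0.260). AARS2 (alanine) was at 18.6, 20.6 and 19.1 CPM against 26.5, 23.4 and 23.2 (0.33, SE 0.14, adjusted p = 0.257). HARS2 (histidine) was at 71.5, 68.8 and 67.9 CPM against 85.6, 86.6 and 88.0 (0.32, SE 0.15, adjusted p = 0.281). In each of these genes every knockdown library was above every control, by little in TARS2. MARS2, the mitochondrial methionine enzyme, encoded at chr2:197705369-197708387 on the plus strand, was at 34.5, 29.9 and 31.2 CPM against 41.4, 37.4 and 39.9 (0.31, SE 0.19). LARS2 (leucine) was at 79.5, 71.8 and 76.2 CPM against 85.3, 85.6 and 95.1 (0.23, SE 0.11). PARS2 (proline) was at 14.7, 14.9 and 14.8 CPM against 18.9, 15.7 and 18.0 (0.24, SE 0.16). Those 3 also did not overlap, while VARS2 (valine), at 48.3, 43.6 and 41.6 CPM against 45.5, 56.4 and 56.3, did. Of the others, RARS2 (arginine) had 0.17 (SE 0.15), CARS2 (cysteine) 0.04 (SE 0.17), EARS2 (glutamate) -0.01 (SE 0.11), SARS2 -0.08 (SE 0.17) and NARS2 (asparagine) -0.11 (SE 0.10). IARS2, the abundant exception, was at 266, 268 and 292 CPM in controls and 224, 236 and 267 in knockdowns (-0.18, SE 0.13). Counted over groups that did not overlap, 2 cytosolic genes were higher and 8 lower and 6 mitochondrial genes were higher and 0 lower, where 15.4% of all genes were higher and 15.8% lower in this sense.

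Same-numbered libraries of a table deviated together, so a replicate block was run as an alternative for the knockdown comparisons. The labels do not state that these libraries are pairs. With the replicate block, 10 synthetases were called in non-irradiated cells, of which 7 rose and 3 fell, beside 13.7% of all genes called higher and 14.1% lower. DARS (-0.36), NARS (-0.34) and IARS2 (-0.18) fell. HARS (0.27) and QARS (0.35) rose among the cytosolic genes. AARS2 (0.32), HARS2 (0.32), LARS2 (0.23), MARS2 (0.31) and TARS2 (0.36) rose among the mitochondrial ones. So 5 of 16 mitochondrial and 2 of 20 cytosolic genes were called higher. The abundant AARS, GARS and TARS were not called.

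**Figure D2:**
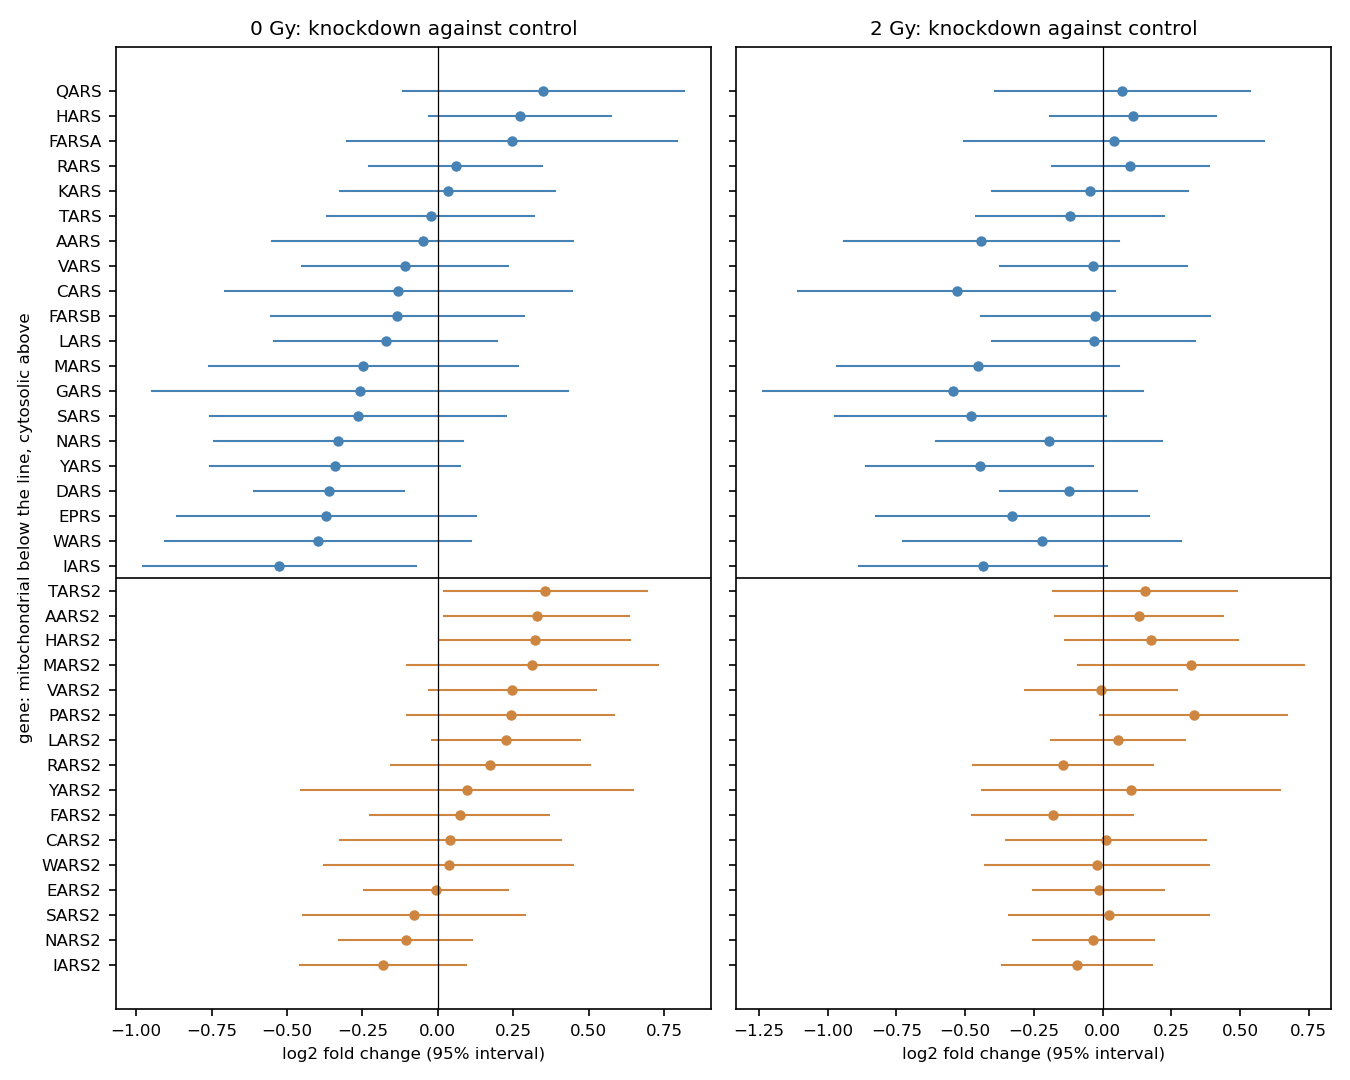
Log2 fold change of the knockdown against control for each synthetase, with its 95% interval from the model, in non-irradiated (left) and irradiated cells (right). Cytosolic genes are above the line and mitochondrial genes below, ordered by the non-irradiated value. Points run from -0.53 (IARS) to 0.36 (TARS2) on the left, and 5 intervals on the left and 1 on the right exclude 0.

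In irradiated cells the cytosolic genes again leaned down, 16 of 20 with a median of -0.16, while the mitochondrial genes were positive in 9 of 16 with a median of 0.02. The medians were -0.26 and 0.17 without irradiated control 1. The same model called 0.297% of all genes and 0 synthetases. At an unadjusted p under 0.05 there was 1 synthetase (YARS), beside 1595 of 17191 genes. DESeq2 and limma-voom called 0 synthetases, beside 273 and 49 of all genes. No synthetase's groups were free of overlap, where 5.82% of all genes were higher and 7.72% lower without overlap. With the replicate block 1 synthetase was called: MARS2 rose (0.33), at 62.1, 37.8 and 42.1 CPM in irradiated controls and 74.1, 50.6 and 52.6 in irradiated knockdowns. Under the block 5.43% of all genes were higher and 6.05% lower. Each MARS2 knockdown library was above the control of its own number, although the groups overlap.

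These irradiated values rest on replicate 1. In irradiated control 1, 13 of 20 cytosolic synthetases were below both other irradiated controls and 7 above both, with ratios to their mean from 0.355 (GARS) to 1.88 (FARSA). AARS was at 451 CPM there and at 845 and 980 in the other irradiated controls. GARS was at 182 against 553 and 473, and IARS at 320 against 557 and 584. QARS went the other way, at 227 against 124 and 137. So the library was low for most abundant enzymes and high for another set, with FARSA, FARSB, HARS, KARS, RARS and VARS also higher in it than in both others. Of the mitochondrial genes 14 of 16 were above both other controls, among them YARS2 (tyrosine, 54.0 CPM against 29.5 and 28.5) and WARS2 (tryptophan, 39.1 against 26.1 and 27.4). In the same library, ATF4 was at 388 CPM against 939 and 985, and 25 of the 28 genes of the list of ATF4 and its targets were below both others. Of 20 proliferation genes, 17 were above both, with a median log2 difference from the non-irradiated controls of 1.82 against 0.36 and 0.19. Their part in the synthetase levels was not tested.

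Without irradiated control 1, an alternative fixed with the other left-out replicates, the knockdown in irradiated cells called 7 synthetases, all of which fell, beside 1.21% of all genes lower and 0.226% higher. They were GARS (-0.89, SE 0.18), CARS (-0.84, SE 0.14), SARS (serine, -0.74, SE 0.14), MARS (methionine, -0.74, SE 0.13), AARS (-0.71, SE 0.14), YARS (-0.67, SE 0.13) and IARS (-0.66, SE 0.15). GARS stood at 265, 309 and 255 CPM in irradiated knockdowns, below the 553 and 473 of irradiated controls 2 and 3 and above the 182 of control 1. CARS stood at 70.0, 67.7 and 69.5 CPM in knockdowns, against 119 and 129 in controls 2 and 3 and 51.1 in control 1. MARS stood at 173, 185 and 197 CPM, against 293 and 323, and 144 in control 1. In all 3 genes the knockdown libraries were close to each other, and the control that was left out was lower than they were. With replicate 1 of both irradiated groups left out, chosen after the data were seen, 6 of those 7 were called lower (IARS was not), beside 1.50% of all genes lower and 0.366% higher.

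**Figure D3:**
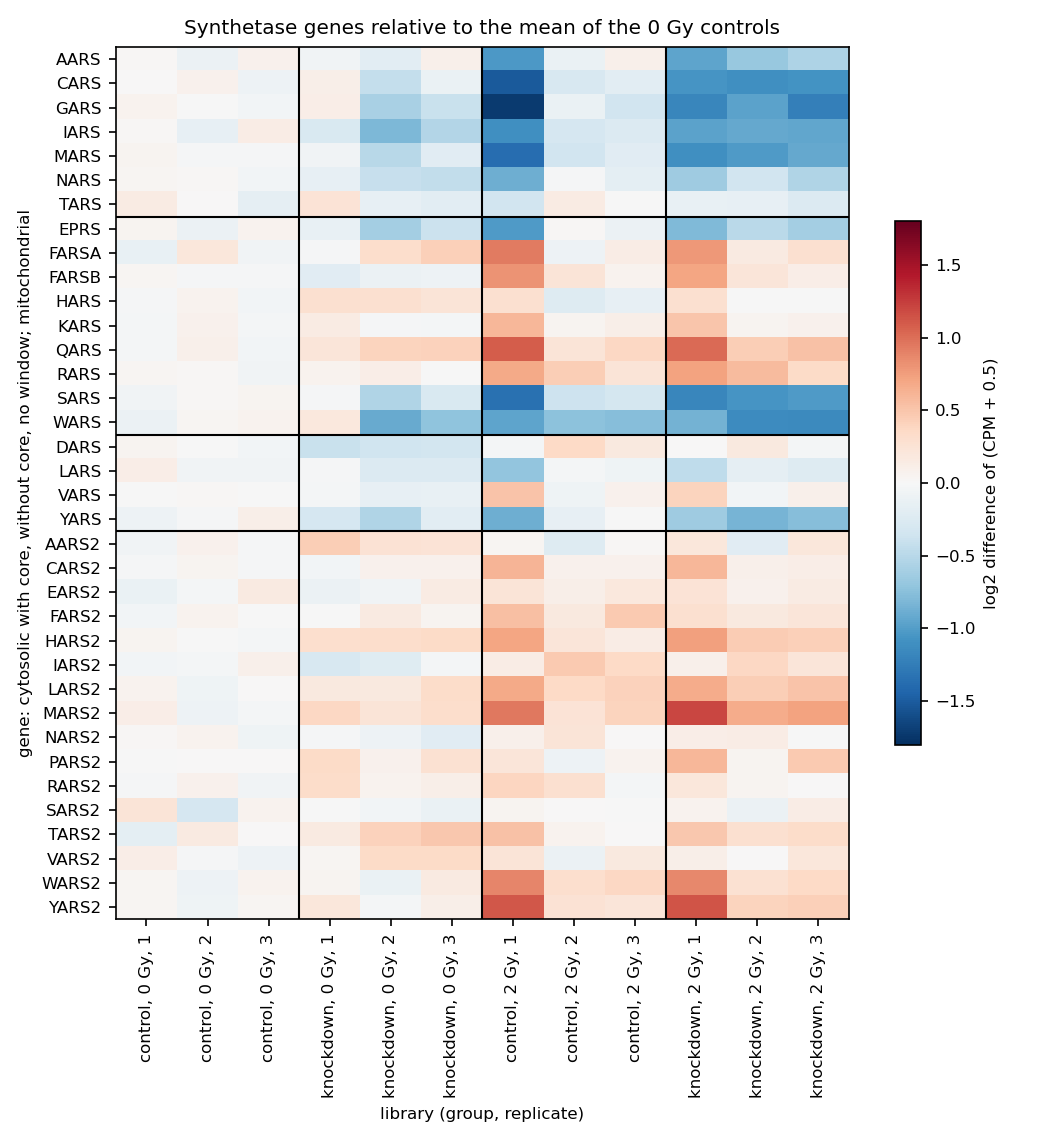
Log2 difference of each synthetase (rows) in each library (columns) from the mean of the non-irradiated controls, with 0.5 CPM added. Rows are grouped as cytosolic genes with the promoter core described below, without it, without a promoter window, and mitochondrial genes. Irradiated control 1 has the lowest values for GARS and high ones for QARS and YARS2, while the irradiated knockdown columns resemble each other in the first block of rows.

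The mean of both knockdown effects, with and without irradiation, used all 12 libraries. It was negative for 16 of 20 cytosolic genes (median -0.24) and positive for 11 of 16 mitochondrial genes (median 0.06, or 0.14 without irradiated control 1). The model called 6.52% of all genes and 0 synthetases. At an unadjusted p under 0.05 there were 9 synthetases, beside 3901 of 17191 genes. DESeq2 called 2 (DARS and IARS, both lower), beside 2035 of all genes, and limma-voom called 0 synthetases. IARS (-0.48, SE 0.15, adjusted p = 0.0733), DARS (-0.24, SE 0.08, adjusted p = 0.0953) and YARS (-0.39, SE 0.13, adjusted p = 0.102) came nearest. With the replicate block 13 were called, where 17.0% of all genes were higher and 17.3% lower. DARS, EPRS, IARS, NARS and IARS2 fell, and HARS, QARS, AARS2, HARS2, LARS2, MARS2, PARS2 and TARS2 rose. MARS2 had the largest rise of these (0.32, SE 0.05). Without replicate 1 of both irradiated groups and with no block, 15 were called, where 8.72% of all genes were higher and 10.6% lower. Then 10 cytosolic genes fell (AARS, CARS, DARS, EPRS, GARS, IARS, MARS, NARS, SARS and YARS), and HARS, QARS, HARS2, MARS2 and TARS2 rose.

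The difference between the knockdown effects with and without irradiation was called for 0 synthetases and for 0% of all genes. At an unadjusted p under 0.05 there were 0 synthetases among 350 genes, and DESeq2 called 1 gene, which was no synthetase. With each library left out in turn the count of synthetases was also 0. So the knockdown effects on these genes are not shown to differ between irradiated and non-irradiated cells.

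Seen pair by pair, knockdown against the control of its own number, 7 synthetases were higher in 6 of 6 pairs: HARS, RARS, AARS2, HARS2, MARS2, PARS2 and YARS2. IARS2 was lower in 6 of 6, and no cytosolic gene was. The share of all genes with 6 of 6 pairs in 1 direction was not computed, so these counts have no background. Some ratios were close to 0: HARS (0.002) and YARS2 (0.011) in irradiated pair 1, and RARS (0.016) in non-irradiated pair 1. The cytosolic median was -0.01, -0.28 and -0.15 in the non-irradiated pairs and 0.12, -0.32 and -0.30 in the irradiated pairs. Irradiated pair 1 was the single pair with a positive cytosolic median, and the non-irradiated pairs were spread more evenly. The mitochondrial median stayed between 0.00 and 0.14 in all 6 pairs.

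A recurring sequence was looked for in the promoters of the members, because ATF4 with a C/EBP partner binds a composite element with the core TGATGNAA (TTNCATCA on the other strand). Both strands of RefSeq promoter windows of GRCh38.p14, from 250 bases before to 50 bases after each start, were searched, and 30 of 36 members matched a window (DARS, LARS, VARS, YARS, AARS2 and VARS2 did not). The core was in 7 of 16 cytosolic and 1 of 14 mitochondrial genes with a window, and in 4.46% of all 27305 genes searched. A match is a description of letters, not of binding. The stretches are shown, 5′ to 3′ along each gene with the match in capitals, for the 8 genes that hold the core:
AARS at chr16:70289675-70289704, minus strand: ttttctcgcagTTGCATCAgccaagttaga
CARS at chr11:3057407-3057436, minus strand: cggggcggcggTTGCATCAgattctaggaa
GARS at chr7:30594834-30594863, plus strand: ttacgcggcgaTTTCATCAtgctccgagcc
IARS at chr9:92293692-92293721, minus strand: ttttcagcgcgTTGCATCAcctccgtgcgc
MARS at chr12:57488053-57488082, plus strand: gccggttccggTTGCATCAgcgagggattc
NARS at chr18:57621804-57621833, minus strand: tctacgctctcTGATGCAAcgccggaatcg
TARS at chr5:33440956-33440985, plus strand: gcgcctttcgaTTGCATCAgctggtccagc
YARS2 at chr12:32756076-32756105, minus strand: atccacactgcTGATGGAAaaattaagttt
The match began 187 bases before the start in AARS, 33 before in GARS (its second window), 13 in IARS, 4 in MARS and 2 in CARS. It began 2 bases after the start in TARS and 14 after in NARS, and 197 before it in YARS2. So in 6 of the 7 cytosolic genes it lay within 33 bases of the start, and TTGCATCA or its complement TGATGCAA was the form in 6 of 7.

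All 7 cytosolic genes with the core had a negative fold change in both knockdown comparisons and in both irradiation comparisons. Their median log2 fold change was -0.25 in non-irradiated and -0.44 in irradiated knockdown, against 0.03 and -0.03 for the 9 cytosolic genes with a window and no core. Without irradiated control 1, the irradiated values were -0.71 and 0.22. The 4 cytosolic genes without a window (DARS, LARS, VARS and YARS) were also all negative in both knockdown comparisons. Their medians were -0.26 in non-irradiated and -0.08 in irradiated knockdown, the latter -0.22 without irradiated control 1. So lower values were not limited to genes in which the core was found. TARS was the weakest of the 7, at 664, 599 and 536 CPM in non-irradiated controls and 706, 539 and 524 in knockdowns (-0.02). EPRS, SARS and WARS hold no core in this window and were also lower, with -0.37, -0.26 and -0.40 in non-irradiated knockdown. Other genes with the core gave smaller values: 282 tested genes outside the members had a median mean-knockdown effect of -0.07 and 10051 without it 0.00, against -0.33 for the 7 synthetases. YARS2, the mitochondrial gene with a core, had values of 0.10 in both comparisons.

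**Figure D4:**
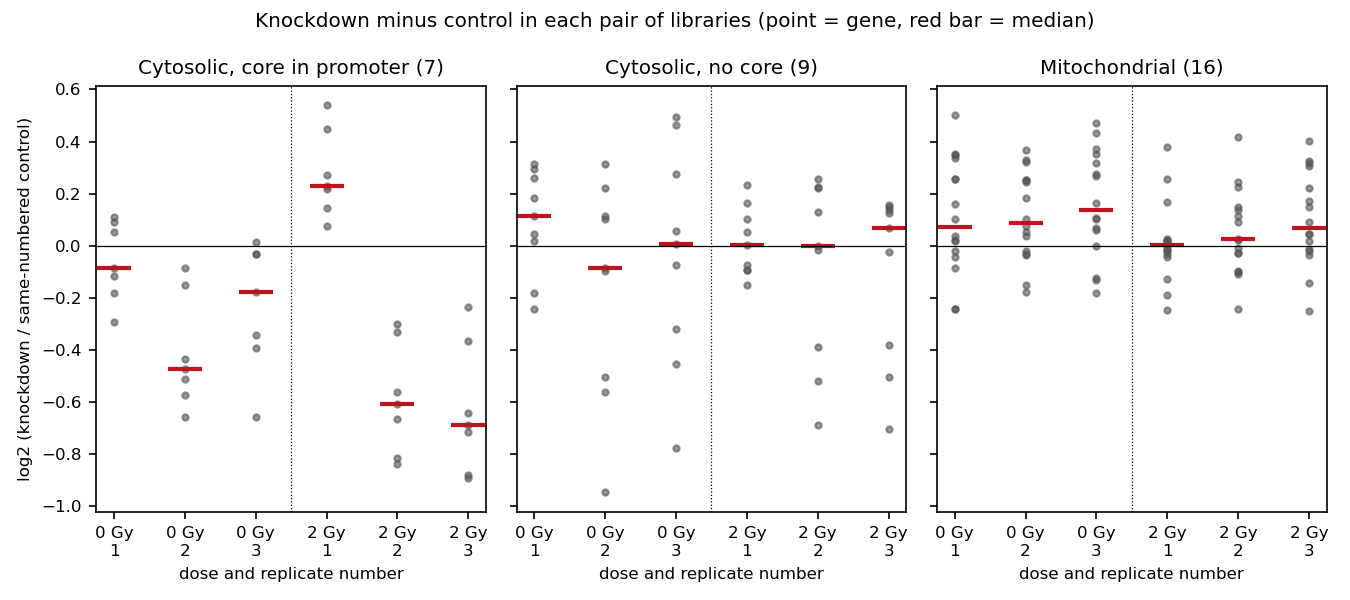
Log2 ratio of knockdown to same-numbered control for each gene (points) and the median (red bars), in the 3 non-irradiated and 3 irradiated pairs. The 7 cytosolic genes with the core have medians of -0.08, -0.47 and -0.18 and then 0.23, -0.61 and -0.69. Irradiated pair 1 thus lies on the other side of 0. Medians of the 9 without a core lie between -0.09 and 0.11, but single genes among the 9 run from -0.95 (WARS) to 0.49 (FARSA).

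The histidine genes sit head to head. HARS (chr5:140673173-140692024, minus strand) and HARS2 (plus strand, to 140699291) start 85 bases apart in RefSeq, and the bases from the HARS start to the HARS2 start, on the plus strand at chr5:140691370-140691455, are shown because both genes were higher in all 6 pairs:
HARS to HARS2: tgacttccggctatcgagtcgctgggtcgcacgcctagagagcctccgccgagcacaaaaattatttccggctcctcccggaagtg
HARS was the lowest cytosolic gene but one per kilobase and HARS2 the second mitochondrial gene, and HARS/HARS2 was the single partner ratio below 1 in non-irradiated controls (0.740 per kilobase). These values depend on the merged exon length, 8436 bases for HARS and 3408 for HARS2. In CPM not divided by length, HARS averaged 127 and HARS2 69.4 in non-irradiated controls. Of the exon positions of HARS2, 17.4% also belong to HARS on the opposite strand, and the strand setting of the counting is not given in the sources used here, so the levels of these genes are uncertain. Counts of MARS (12.4% of exon positions shared) and WARS (10.6%), whose largest overlaps are on the opposite strand, carry the same reservation. SARS2 (57.0%) and VARS2 (22.0%) have their largest overlaps on their own strand, with CTC-360G5.8 (46.2%) and GTF2H4 (22.0%). Their levels are uncertain under any strand setting.

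The ratio of cytosolic to mitochondrial enzyme for the same amino acid was taken per kilobase within each library, for 13 amino acids. It was lower in the knockdown than in the same-numbered control for 8, 12 and 13 of 13 in the non-irradiated pairs and for 2, 12 and 12 in the irradiated pairs, so irradiated pair 1 again stood apart. AARS/AARS2 averaged 45.6 in non-irradiated controls, 35.1 in knockdowns, 39.4 in irradiated controls and 26.6 in irradiated knockdowns. MARS/MARS2 averaged 5.04, 3.40, 2.54 and 1.39 in the same order. RARS/RARS2 did otherwise, at 8.71, 8.10, 10.2 and 12.0. The ratio has the mitochondrial level in its denominator, so it moves with either gene. Cytosolic minus mitochondrial median fold change was -0.29 in non-irradiated, -0.18 in irradiated and -0.31 in mean knockdown. Without irradiated control 1 the irradiated value was -0.43, and with single irradiated libraries left out the mean knockdown value ran from -0.46 (without irradiated control 1) to -0.19 (without irradiated control 3 or irradiated knockdown 1).

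Of the cytosolic enzymes, 8 are held in the multisynthetase complex by the scaffold proteins AIMP1, AIMP2 and EEF1E1. The 8 had a median of -0.21 in non-irradiated knockdown, from -0.53 (IARS) to 0.35 (QARS), so members of a single complex lay at both ends of the cytosolic range. The 12 enzymes outside the complex had a median of -0.13. The scaffolds were 0 of 3 called, with AIMP1 at -0.25, AIMP2 at -0.22 and EEF1E1 at -0.43, and with the replicate block all 3 fell, where 14.1% of all genes did. By catalytic fold, the 10 class I cytosolic enzymes had a median of -0.21 and the 10 class II ones -0.09. The fused enzyme EPRS was counted in class I only. For the mitochondrial enzymes it was 0.10 for 9 of class I and 0.24 for 7 of class II.

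Irradiated controls were compared with non-irradiated controls, with the table as a confounder. Cytosolic genes were negative in 13 of 20 (median -0.27) and mitochondrial genes positive in 14 of 16 (median 0.26). These medians were -0.05 and 0.14 without irradiated control 1. The model called 2.26% of all genes and 1 synthetase, LARS2 (chr3:45388506-45549421, plus strand), which rose. It was at 79.5, 71.8 and 76.2 CPM in non-irradiated and 121, 97.0 and 101 in irradiated controls (0.49, SE 0.11, adjusted p = 0.046). The groups did not overlap, but the call is marginal: over 15 alternatives the adjusted p ran from 0.00352 to 0.181, and 5 of them called it. Among those 5 was a replicate block across tables, a pairing that the correlations between tables do not back. Without irradiated control 1 the fold change was 0.38 and the call was lost, as it was with each other library of this comparison left out. Scaling by library size alone moved the median of all genes to -0.16 in this comparison, and it called WARS lower (-0.97) and LARS2 not. The mitochondrial median was then 0.10, with 11 of 16 positive, and the cytosolic one -0.41.

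Next to LARS2 came RARS, at 132, 130 and 123 CPM in non-irradiated and 205, 174 and 150 in irradiated controls (0.46, SE 0.13, adjusted p = 0.0837). WARS was at 164, 190 and 187 CPM in irradiated controls, all below the 297 to 332 of the non-irradiated ones (-0.82, SE 0.23, adjusted p = 0.0826). Both genes differed in the same direction in all 3 irradiated controls, and their groups did not overlap. SARS was at 450, 478 and 485 CPM in non-irradiated and 185, 363 and 379 in irradiated controls (-0.61, SE 0.23). QARS had 0.62 (SE 0.21), with 227, 124 and 137 CPM after irradiation. FARS2 (phenylalanine) was at 10.2, 11.1 and 10.5 CPM and at 15.7, 12.1 and 14.9 after irradiation (0.42, SE 0.14). IARS2 was at 301, 382 and 353 CPM after irradiation (0.33, SE 0.13), above every non-irradiated control. WARS2 was at 21.4, 19.7 and 21.9 CPM in non-irradiated and 39.1, 26.1 and 27.4 in irradiated controls. MARS2 (0.57) and WARS2 (0.56), whose highest value by far was in irradiated control 1, were not called. By groups that did not overlap, 8 mitochondrial genes were higher and 0 lower, and 3 cytosolic genes were higher and 6 lower, where 13.7% of all genes were higher and 13.9% lower. The cytosolic minus mitochondrial difference was -0.52 with all libraries and -0.19 without irradiated control 1.

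In knockdown cells, irradiated against non-irradiated libraries had cytosolic values from -0.96 (CARS) to 0.51 (FARSB), with a median of -0.17, and a mitochondrial median of 0.18, with 13 of 16 positive. The model called 3.58% of all genes and 0 synthetases. At an unadjusted p under 0.05 there were 14 synthetases, beside 3600 of 17191 genes. DESeq2 called 6, beside 1438 of all genes, and limma-voom called 0 synthetases. CARS (-0.96, SE 0.27, adjusted p = 0.0742), SARS (-0.82, SE 0.23, adjusted p = 0.0709) and RARS (0.50, SE 0.13, adjusted p = 0.0618) came nearest. SARS was at 464, 323 and 389 CPM in non-irradiated and 208, 225 and 232 in irradiated knockdowns, and RARS at 133, 140 and 128 against 213, 191 and 164. Neither pair of groups overlapped, as for 13 synthetases that were higher and 8 lower in all, where 15.8% of all genes were higher and 14.0% lower. Without replicate 1 of both irradiated groups 11 were called, beside 5.28% of all genes higher and 5.06% lower. AARS, CARS, GARS, MARS, SARS and YARS fell, and DARS, FARSB, RARS, IARS2 and MARS2 rose. Cytosolic genes thus lay on both sides within a single comparison. With scaling by library size alone the median of all genes was -0.15, the mitochondrial median 0.03 and the cytosolic one -0.32.

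The other genes of the same pathway were described from fixed lists. Of 28 genes of the list of ATF4 and its targets other than synthetases, 25 were negative in non-irradiated knockdown (median -0.49) and 27 in irradiated knockdown (median -0.67), with 1 and 0 called. For the mean of both effects the median was -0.65, and 7 fell: ATF3, ALDH1L2, TRIB3, DDIT3, SESN2, CEBPB and SLC3A2, where 4.20% of all genes fell. ATF3, a stress-induced transcription factor, was at 92.2, 98.5 and 122 CPM in non-irradiated controls and 46.9, 33.6 and 40.7 in knockdowns (-1.37, SE 0.23, adjusted p = 0.0142). ATF4 itself was at 933, 966 and 945 CPM against 869, 649 and 745 and was not called (-0.33, SE 0.27). Per library, the ATF4 list and the cytosolic genes with the core followed the same order in part: knockdown 1 was nearest to the controls in both (-0.22 and -0.06) and irradiated control 1 the lowest in both (-1.28 and -1.11). The core was found in 5 of the 21 genes of that list with a promoter window. Of the kinases that sense stress and act on the same translation factor, EIF2AK3 (PERK) fell in both comparisons, at 51.3, 45.1 and 51.9 CPM against 23.0, 25.2 and 25.2 without irradiation (-1.01, SE 0.15, adjusted p = 0.0101) and with -0.86 with it. The remaining 6 genes of that list were not called.

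Other genes of tRNA handling and of the mitochondrial side gave these counts in non-irradiated knockdown. Of 8 tRNA proofreading and handling genes 0 were called, and for the mean of both effects TRNT1, which adds the CCA end to tRNA, fell (-0.33, SE 0.08, adjusted p = 0.0346). Mitochondrial translation factors were positive in 11 of 12 (median 0.11), among them the amidation subunits GATB (0.15), GATC (0.13) and QRSL1 (0.02), with 0 called. Mitochondrially encoded messenger RNAs were positive in 12 of 13 (median 0.28), with 0 called, and with the replicate block 8 rose, where 13.7% of all genes did. Mitochondrial ribosomal genes were positive in 23 of 30 (median 0.13), with 0 called. So the small positive lean of the mitochondrial synthetases (median 0.13) had the size of that of the mitochondrial ribosome list. Cytosolic elongation factors were negative in 4 of 5 tested, with 0 called.

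**Figure D5:**
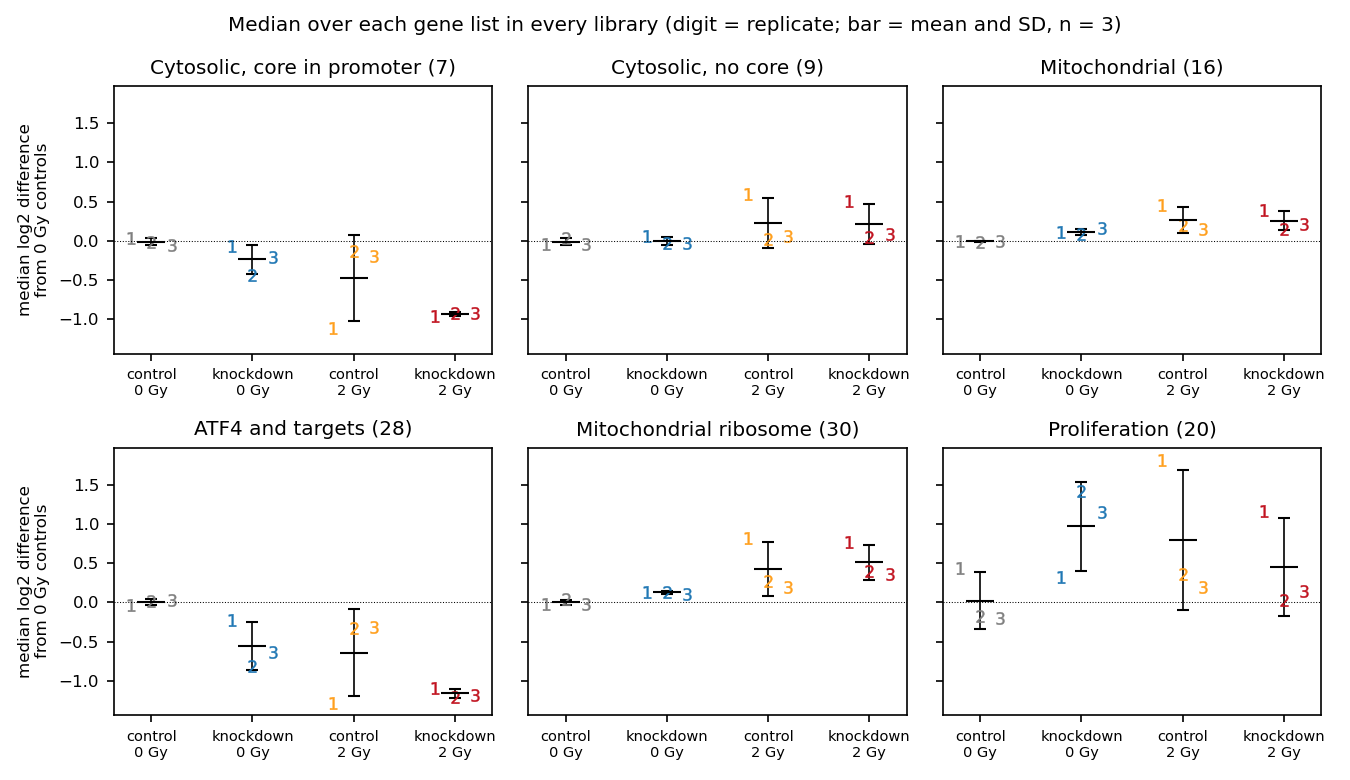
Median log2 difference from the non-irradiated controls over each list, by library. Digits are replicate numbers and bars are the mean and SD of 3 libraries. In irradiated control 1 the cytosolic genes with the core (-1.11) and the ATF4 list (-1.28) are low while the genes without a core (0.60), mitochondrial synthetases (0.46) and proliferation genes (1.82) are high.

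Proliferation genes differed by group and in the same libraries. Their median log2 fold change was 0.88 in non-irradiated knockdown (20 of 20 positive) and -0.53 in irradiated knockdown (20 of 20 negative), with 0 called in either. Without irradiated control 1 the irradiated median turned to 0.24, and without replicate 1 of both irradiated groups it was -0.25. Per library the median was 0.33, 1.42 and 1.15 in non-irradiated knockdowns, so knockdown 1, in which WARS and GARS were not lower than in controls, also had the lowest proliferation value. GARS was at 630.3, 596 and 578 CPM in non-irradiated controls and at 653, 400.5 and 456 in those knockdowns. The summed level of fibroblast markers was 12.5 to 27.8 CPM in non-irradiated controls and 16.9 to 26.4 in knockdowns, and COL3A1, at 0.239 to 0.880 CPM in non-irradiated controls and 1.28 to 2.81 in knockdowns, rose in the mean of both effects (1.86), where 2.32% of all genes rose. It was 1 of 4 tested fibroblast markers, of which COL1A1 was at 0.15, LUM at -0.70 and PDGFRB at -0.74 in that comparison, none of them called. The part of these lists in the synthetase values was not tested, and in bulk RNA fewer cells of a kind and less RNA per cell cannot be told apart.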

How the data were processed

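Polyadenylated RNA of 12 libraries was measured. Per the labels and file headers, the authors deposited raw gene counts, with non-irradiated and irradiated libraries in separate tables of 6. GRCh38, STAR 2.5 and featureCounts from Subread 1.5.3 are named in the submitters' processing notes, as is edgeR 3.20.8. Whether counting used strand, the annotation release and the treatment of reads with several matches are not stated in the labels or headers. Another 13 rows of 4 member names on alternate scaffolds held 0 counts and were not used.

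The filterByExpr rule of edgeR 4.0.16 (R 4.3.3) at a minimum count of 10 and a minimum total of 15 kept 17191 genes. After TMM scaling, all 12 libraries entered a single robust quasi-likelihood fit of 4 group means (8 residual degrees of freedom, biological coefficient of variation 0.216). Calls used a Benjamini-Hochberg adjusted p under 0.05 over all tested genes. The SE is the fold change divided by the square root of the F statistic. CPM values are scaled by TMM. A count of 0 allows up to 3 counts, for counting error only. In simulated non-irradiated knockdown data of 16860 genes, 42 of 100 genes changed by 1 on the log2 scale and 83 of 100 changed by 2 were recovered. Both sizes exceed the largest synthetase change in that comparison (-0.53, IARS), and the simulated libraries were independent of each other. The rates therefore do not apply to changes of the size seen here.

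The labels number the replicates without stating that equal numbers are pairs. Within a table, deviations from group means of same-numbered libraries correlated at 0.233, 0.255 and 0.296 without irradiation and 0.775, 0.613 and 0.607 with it. Differently numbered non-irradiated libraries had -0.18 to -0.07. Irradiated control 2 with knockdown 3 and control 3 with knockdown 2 also correlated, at 0.396 and 0.476, so the irradiated pairing is less clear. Across tables the correlations of same-numbered libraries ran from -0.15 to 0.14, so they do not back a pairing there. A replicate block across tables was still run for the irradiation comparisons, as an alternative only. Fits with limma 3.58.1 and DESeq2 1.42.0 were alternatives, as were other scalings, filters, and each library left out.

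Members, lists and tests were chosen with earlier results of these data known. All members are accounted for. Values per library are given for called members and for the 5 of each compartment with the smallest p in non-irradiated and mean knockdown and in irradiated controls, plus members chosen after their values were seen: GARS, CARS, MARS, AARS, TARS and YARS2. From the other lists, called genes are named, or up to 2, and ATF4, 3 scaffold and 3 amidation genes were named outside this rule, after their values were seen. Sequences are from RefSeq (GRCh38.p14).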

Additional observations from a re-analysis of the deposited data

Results flagged for a closer look

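FARS2, the mitochondrial phenylalanine enzyme, was higher in the knockdown than in the same-numbered control in all 3 non-irradiated pairs (log2 ratios of 0.04, 0.10 and 0.06) and lower in all 3 irradiated pairs (-0.25, -0.01 and -0.25), which is why it is listed. The difference of the knockdown effects was -0.25 (SE 0.19, unadjusted p = 0.211 in edgeR, adjusted p = 1.00), so it did not pass the test.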

How the results depend on the processing

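Cytosolic minus mitochondrial medians stayed negative under every alternative run in the 3 knockdown and 2 irradiation comparisons, and ran from -0.10 to 0.15 for the difference of the knockdown effects. A shift was counted as a move above 0.33, the pooled spread of this difference between libraries. That spread includes irradiated control 1, at -1.25 against -0.28 and -0.20 in the other irradiated controls. It exceeds the size of each knockdown difference with all libraries, so it cannot show that those are stable. Only irradiated against non-irradiated controls moved by this rule. The value was -0.19 without irradiated control 1 or without both first irradiated replicates (range over single libraries left out -0.70 to -0.19). Counts of called synthetases moved more. In non-irradiated knockdown the count of 0 became 1 with DESeq2, 3 with only the compared libraries, 10 with the replicate block and 0 to 1 with a library left out. Calls over all genes moved too, from 265 to 1047, 1486, 4776 and 31 to 341 in the same order. In irradiated knockdown the synthetase count became 1 with the replicate block, 6 without both first irradiated replicates and 0 to 7 with a library left out. All-gene calls went from 51 to 1974, 326 and 4 to 254. For the mean knockdown the synthetase count became 1 with no filter on low counts, 2 with DESeq2 and 13 with the replicate block. It was 15 without both first replicates and 0 to 15 with a library left out. All-gene calls went from 1120 to 955, 2035, 5894, 3378 and 440 to 2780. For irradiation in controls the count of 1 became 0 with RLE scaling, no filter, only the compared libraries or any library left out (0 to 0). All-gene calls there went from 389 to 365, 592, 64 and 24 to 341. The synthetase count was 3 with DESeq2, 3 with a replicate block across tables and 2 without both first replicates, beside 1377, 965 and 868 genes. For irradiation in knockdowns the 0 became 2 with library-size scaling, 1 with no filter, 6 with DESeq2 and 3 with only the compared libraries. It became 4 with a replicate block across tables and 11 without both first replicates. All-gene calls went from 615 to 845, 577, 1438, 344, 1157 and 1806 in that order. Over all genes, library-size scaling turned 238 higher and 151 lower calls for irradiation in controls into 170 and 444, and 374 and 241 in knockdowns into 224 and 621. The causes were not tested, beyond the fewer libraries used. Over the main fit and these alternatives the fold change took both signs for 7 of 36 synthetases in non-irradiated knockdown (AARS, CARS, EARS2, KARS, SARS2, TARS and WARS2), 16 in irradiated, 9 in mean knockdown, 24 for the difference of the knockdown effects, 8 for irradiation in controls and 3 in knockdowns.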
